A study of Mus musculus with 4 samples.

Results

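The array carried 4460 probes for long intergenic non-coding RNAs (lincRNAs), recognised by the prefix A_30_P of their names, and 1411 of them (31.6%) gave a signal well above background on both control arrays or on both PGE2 arrays. They were selected on this background call of the scanner, and are described here, out of 56605 probes on the array. The scanner flagged the spots of 3 of them as outliers, so that 1408 entered the fit. For comparison, 24692 of the 52145 other probes (47.4%) met the same criterion. The cells were smooth muscle cells grown out from adult mouse aorta by the explant method, of the strain C57BL/6J and the genotype EP4-Tg, which the control cells carried too. The promoter that drives the transgene and the age of the mice are not given in the sources used here. One group of 2 samples received no treatment and the other, also of 2 samples, received prostaglandin E2 (PGE2) for 24 h, and each sample was hybridised in 1 colour to 1 array. The submitters describe the samples of a group as biological replicates, and the comparison asks what PGE2 does in cells with this EP4 genotype.

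A lincRNA is a long RNA that codes for no protein and is transcribed from DNA between protein-coding genes. Many are kept in the nucleus, are made at lower levels than messenger RNAs, and are far more restricted to particular cell types. PGE2 is a lipid messenger, and EP4 is one of its receptors. EP4 couples to the stimulatory G protein and raises cyclic AMP, which activates factors that bind the cyclic AMP response element.

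Each lincRNA probe is named in the files for a genomic interval of the mouse build mm9 and a strand, not for a gene. The intervals ran from 62 to 538251 bases, and 10 probes also carried a lincRNA's name, of which NEAT1, XIST, KCNQ1ot1 and TUG1 were among the probes above background. Promoters of Kcnq1ot1, Xist and Tug1 were found in the RefSeq table (build GRCm38.p6, 250 bases before to 50 after the start). They are shown because these are the lincRNA probes with both a name and a promoter. Mir155hg, the host gene of miR-155, is shown because its own probe lies in the cytoband that holds 3 of the lincRNA probes called higher with PGE2. Capitals mark the letters TGACG or CGTCA, the core of the cyclic AMP response element, searched on both strands.

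Mir155hg, chr16:84712773-84713072, plus strand: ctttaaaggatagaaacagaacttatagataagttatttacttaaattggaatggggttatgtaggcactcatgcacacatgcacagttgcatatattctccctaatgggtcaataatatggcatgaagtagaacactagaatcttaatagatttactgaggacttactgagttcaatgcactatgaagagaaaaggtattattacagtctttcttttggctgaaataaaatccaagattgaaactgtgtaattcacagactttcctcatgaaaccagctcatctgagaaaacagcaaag
Kcnq1ot1, chr7:143296498-143296797, minus strand: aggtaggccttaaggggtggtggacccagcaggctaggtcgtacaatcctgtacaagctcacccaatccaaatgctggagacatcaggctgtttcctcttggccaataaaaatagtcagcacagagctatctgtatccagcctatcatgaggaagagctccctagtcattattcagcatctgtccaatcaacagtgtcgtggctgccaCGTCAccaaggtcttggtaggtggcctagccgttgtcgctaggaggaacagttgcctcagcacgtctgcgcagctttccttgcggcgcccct
Xist, chrX:103483184-103483483, minus strand: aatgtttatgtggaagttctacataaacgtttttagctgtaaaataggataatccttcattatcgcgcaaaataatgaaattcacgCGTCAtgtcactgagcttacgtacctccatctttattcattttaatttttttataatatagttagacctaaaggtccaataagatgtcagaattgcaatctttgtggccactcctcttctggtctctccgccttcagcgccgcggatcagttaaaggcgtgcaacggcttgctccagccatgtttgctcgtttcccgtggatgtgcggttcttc
Tug1, chr11:3648765-3649064, minus strand: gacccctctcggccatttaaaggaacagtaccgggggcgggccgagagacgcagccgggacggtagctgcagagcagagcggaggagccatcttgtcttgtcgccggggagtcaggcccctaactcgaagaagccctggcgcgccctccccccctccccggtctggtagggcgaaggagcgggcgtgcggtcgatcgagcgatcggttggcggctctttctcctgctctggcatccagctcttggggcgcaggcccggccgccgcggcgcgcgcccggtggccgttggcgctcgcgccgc

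This core was present once in the Kcnq1ot1 window and once in the Xist window, and neither the Mir155hg nor the Tug1 window held it. Of 32851 RefSeq promoters of this length, 20.8% held the core and 1.79% held the full site TGACGTCA, which contains both forms of the core and was in none of these 4 windows.

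Levels are given as log2 of the scanner's processed signal minus log2 of the 75th percentile of that array, so that a level of 0 equals the 75th percentile of all probes of the array. Between 47.9% and 53.8% of the spots were well above background on an array, and no spot was saturated. The share of usable lincRNA probes above background was 34.4% and 31.1% on the control arrays 1 and 2, and 32.1% and 40.0% on the PGE2 arrays 1 and 2. PGE2 array 2 was thus the highest both for lincRNA probes and for all probes. Across the lincRNA probes, arrays of 1 group correlated at 0.955 (control) and 0.963 (PGE2), and arrays of different groups at 0.930 to 0.948. Among markers of aortic smooth muscle, 9 of 12 were above background, and Myh11, Des and Lmod1 were not. Summed over the list, the smooth muscle markers stood at 923 and 550 times the 75th percentile on the control arrays and at 168 and 264 times on the PGE2 arrays. Macrophage and leukocyte markers summed to 78.8 and 64.8 on the control arrays and to 62.7 and 42.2 on the PGE2 arrays, with 6 of 12 above background and Adgre1, C1qa, Cd79a, Fcgr1, Lyz2 and Mrc1 not. Endothelial markers summed to between 0.539 and 1.25 on every array, with 3 of 10 above background, among which Cdh5, Kdr and Vwf were missing. Adventitial fibroblast markers (6 of 9 above background, Cd34, Dpt and Fap not) summed to 271 and 169 on the control arrays and to 127 and 116 on the PGE2 arrays. Markers of adipocytes (0 of 4 above background) summed to at most 1.03. The part of these shifts in the values below was not tested, and in these bulk samples fewer cells of a type and less RNA per cell cannot be told apart.

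The lincRNA probes were dim. Over all 1408, the median level was -1.99, with a range from -5.16 to 7.67, against a median of -0.15 for the other probes above background. Of the lincRNA probes, 1157 (82.2%) were well above background on all 4 arrays, against 89.6% of the other probes. Within these, the median level was -1.47 for lincRNA probes and 0.27 for the others, and 29.1% of the lincRNA probes and 53.8% of the others lay above the 75th percentile of the array. The criterion itself sets the lower end of these levels. The dimmest probes inside it, A_30_P01032801, A_30_P01023682 and A_30_P01023752, had mean levels of -5.16, -4.93 and -4.90 and were above background on the PGE2 arrays alone. The brightest outside it, A_30_P01032054, A_30_P01030211 and A_30_P01024326, had mean levels of -3.00, -3.06 and -3.14 and were above background on 1 array of each group.

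A further 2401 of the lincRNA probes were above background on no array. Probes of short intervals were above background less frequently: 22.9% for intervals of 62 to 1738 bases, 33.4% up to 10601 bases, 33.9% up to 25760 bases, and 36.5% from 25777 bases upward. The forward and the reverse strand gave 31.1% and 32.2%.

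A minority of lincRNA probes were among the bright probes of the array. The brightest was A_30_P01026458 on the reverse strand of chr11:22681800-22707775 (cytoband 11qA3.2), at 8.13 and 7.78 on the control arrays and 7.32 and 7.44 on the PGE2 arrays. A_30_P01031448, forward on chr14:78924115-78938125 (14qD3), followed at 7.64 and 7.35 in the controls and 7.36 and 7.22 with PGE2. A_30_P01022075, reverse on chr17:17481706-17482457 (17qA3.2), stood at 7.28 and 6.96 in the controls and 7.31 and 7.14 with PGE2. Of these, the first had both PGE2 arrays below both controls, and the groups of the other two overlapped. The 10 brightest probes also held NEAT1 and both strands of chr12:73838608-73862621 (12qC3). Leaving out NEAT1, their differences between PGE2 and control ran from -0.57 to 0.11, and none of the 10 was called.

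Of 3234 intervals, 828 were probed on both strands: neither strand was above background in 334, 1 strand in 353 (155 forward, 198 reverse) and both in 141. In 105 intervals both strands were above background on all 4 arrays. The level of a probe also depends on how well it binds its target, so levels of different probes order signals and not amounts of RNA, and no level is compared between the strands of an interval.

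With PGE2, most lincRNA probes sat slightly lower on this scale. Among the 1157 above background on all 4 arrays, the median difference (PGE2 minus control, log2) was -0.20, and 72.8% were below 0. Among the 22132 other probes the median was -0.01, and 51.0% were below 0. The quartiles were -0.40 and 0.02 for lincRNA probes and -0.28 and 0.23 for the others. Messenger RNA probes (16580 with RefSeq NM accessions) had a median of 0.03. The 502 other probes that the files describe as non-coding RNA had a median of -0.11, with 60.4% below 0. On each array the median lincRNA level lay below that of the other probes: by 1.69 and 1.50 on the control arrays and by 1.89 and 1.80 on the PGE2 arrays. Both PGE2 gaps were wider than both control gaps.

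The distance from 0 depends on how arrays are scaled, and the distance between the sets less so. With the authors' own scaling the median of all probes moved from -0.02 to 0.24. The lincRNA median was then 0.06 and that of the others 0.25, so its sign turned. The gap stayed at -0.19, since a constant per array shifts both sets alike and cannot change it. With normexp background correction and quantile normalization the gap was -0.10. Taking 1 probe per locus, it was -0.20. Leaving out control array 1 brought it to -0.14.

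Because lincRNA probes are dim, they were set beside other probes of like signal. In 5 signal bins from dim to bright, the lincRNA medians were -0.21, -0.18, -0.21, -0.16 and -0.20, from 564, 305, 172, 70 and 46 probes. The other probes in these bins had medians of -0.09, 0.01, 0.04, 0.05 and -0.17. The lincRNA medians thus hardly varied with signal, and those of the other probes were lower in the dimmest and brightest bins than between. The quartiles of the lincRNA probes were -0.43 and 0.02 in the dimmest bin, -0.34 and -0.01 in the middle bin and -0.29 and -0.02 in the brightest. Those of the other probes were -0.39 and 0.19, -0.19 and 0.24, and -0.47 and 0.15, so the sets overlapped widely in each. The gap was largest in the middle bin (-0.25) and smallest in the brightest (-0.03). Weighted by the number of lincRNA probes it averaged -0.16, and without control array 1 it averaged -0.10.

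Counted by array, 125 lincRNA probes (10.8%) had both PGE2 arrays above both control arrays, against a background of 24.1% over all probes above background on all 4 arrays. Another 421 (36.4%) had both PGE2 arrays below both controls, against a background of 26.5%. At an unadjusted p under 0.05 in the limma fit over all 26100 probes, 62 lincRNA probes were higher (background 7.73%) and 153 lower (background 9.43%), or 4.40% and 10.9% of the 1408. After Benjamini-Hochberg adjustment over all probes, 6 lincRNA probes were called higher (background 0.349%) and 2 lower (background 0.238%), which is 0.426% and 0.142% of them. Their adjusted p ran from 0.0444 to 0.0489, just inside the threshold of 0.05.

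These 8 calls rest on all 4 arrays. Leaving out an array leaves 1 array in a group, so no call can be checked that way. The smallest of the 8 differences, sign aside, was 2.27 without control array 1 and 2.22 without control array 2. It was 2.21 without PGE2 array 1 and 2.47 without PGE2 array 2. Under the authors' scaling limma called 0 of the 8, and over all probes it called 0 higher and 0 lower. The direction of all 8 was the same under each of these settings. Of the 8, 2 were above background on all 4 arrays and 6 were above background in 1 group alone, so that 6 had to differ to be counted. For those 6 a lower bound of the fold is given: the mean of the bright group against the dim group's mean of the array floor or the probe's own signal, whichever was higher, the floor being the lowest signal well above background.

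Of the 6 called higher, 3 lay within the same 8576 bases of cytoband 16qC3.3. A_30_P01032196, forward on chr16:84708695-84708806, stood at -2.56 and -2.21 on the control arrays and at 0.22 and -0.09 on the PGE2 arrays. The groups were far apart, and the difference was 2.45 ± 0.22 (standard error in the limma model, 2 arrays each, adjusted p = 0.0489), or 5.45-fold. A_30_P01017643, on the reverse strand of the enclosing interval chr16:84702353-84710928, was above background with PGE2 alone, at -1.07 and -1.37. It was at least 5.44-fold above the controls (adjusted p = 0.0486). Its control signals, -3.82 and -3.51, were not well above background but lay above the floor, so this bound equals the fitted difference of 2.44. A_30_P01033281, forward on chr16:84707202-84707748, stood at -2.68 and -3.19 with PGE2 and was at least 1.85-fold higher (adjusted p = 0.0486). The forward intervals do not overlap each other and both lie within the reverse-strand interval. The 3 probes share a place and are not replicates of each other.

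The probe of Mir155hg (A_55_P2741754), which the files place in the same cytoband but with no position, was likewise above background on the PGE2 arrays alone, at -2.85 and -3.65. It was at least 1.49-fold higher with PGE2 and did not pass (adjusted p = 0.204). The other lincRNA probes of this cytoband, between chr16:89961600 and chr16:90127636, did not share the shift: A_30_P01022857, A_30_P01030261, A_30_P01018297 and A_30_P01023917 had differences of -0.43, 0.16, -0.42 and -0.39.

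Cytoband 17qA1 held another pair of calls. A_30_P01030367, forward on chr17:7838192-7853103, stood at -1.29 and -1.10 with PGE2 and was not well above background in the controls, at least a 6.20-fold difference (adjusted p = 0.0444). A second probe for that strand of the interval, A_30_P01023690, was also above background with PGE2 alone, at -2.62 and -3.49, and at least 1.71-fold higher, but did not pass (adjusted p = 0.0716). A_30_P01028855, forward on chr17:8718223-8949898, stood at -2.02 and -1.27 with PGE2 and was at least 4.54-fold higher (adjusted p = 0.0485). Its neighbour on the opposite strand, A_30_P01018471, stood at -3.12 and -3.13 in the controls and at -4.33 and -3.58 with PGE2. The whole cytoband did not move with them: its 16 lincRNA probes above background on all 4 arrays had a median difference of -0.11, beside -0.12 for the other probes there.

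The sixth probe called higher was A_30_P01018611, reverse on chr14:78957377-78962977 (14qD3). It stood at -0.83 and -1.06 in the controls and at 1.52 and 1.27 with PGE2, a difference of 2.34 ± 0.19 (adjusted p = 0.0485) or 5.06-fold. The neighbouring interval chr14:78924115-78938125 stayed within the spread of its arrays. There the very bright forward probe A_30_P01031448 differed by -0.20 ± 0.19 and the dim reverse probe A_30_P01029353 by 0.11 ± 0.53.

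Both probes called lower were above background in the controls alone. A_30_P01027860, reverse on chr2:60038543-60046318 (2qC1.1), stood at -2.45 and -2.61 in the controls and fell at least 3.54-fold below them on the PGE2 arrays (adjusted p = 0.0444). A second reverse probe of this interval, A_30_P01024134, stood at -2.98 and -3.01 in the controls and -3.48 and -3.30 with PGE2, a difference of -0.39 ± 0.17 that did not pass (adjusted p = 0.334). A_30_P01018067, forward on the short interval chr10:83399729-83399790 (10qC1), stood at -3.18 and -2.96 in the controls and was at least 2.43-fold lower (adjusted p = 0.0468). The reverse-strand probe around it, A_30_P01032132, differed by -0.16 ± 0.18.

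Detection in 1 group alone was more frequent with PGE2 for lincRNA probes and for other probes. Of the lincRNA probes, 48 (3.41%) were above background on both PGE2 arrays and no control array, and 14 (0.994%) the other way round. For the other probes these counts were 662 (2.68%) and 184 (0.745%). Among all fitted lincRNA probes, 116 (8.24%) were above background on 3 arrays and missed 1 control array, and 73 (5.18%) missed 1 PGE2 array. Among all other fitted probes these shares were 4.77% and 2.17%. PGE2 array 2 detected the most probes, and its part in these counts was not tested. Of the 48, 39 had a bound above 1, with a median of 1.38-fold and a maximum of 6.20-fold. All 14 detected in the controls alone had one, with a median of 2.52-fold and a maximum of 14.6-fold. That maximum belonged to A_30_P01024637, forward on chr1:138579972-138587381 (1qE4), which stood at 0.35 and -1.23 in the controls and did not pass (adjusted p = 0.0947). Next came A_30_P01032963, reverse on chr12:110845020-110850870 (12qF1), at -1.94 and -2.67 in the controls and at least 4.14-fold lower (adjusted p = 0.103). In the other direction A_30_P01027288, reverse on chr15:12126433-12126745 (15qA1), stood at -3.29 and -0.47 with PGE2 and was at least 3.85-fold higher (adjusted p = 0.172), with PGE2 arrays far apart.

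The locus with the most lincRNA probes holds the probe named NEAT1, an architectural RNA that builds the nuclear bodies called paraspeckles. This locus is a merge of overlapping intervals on both strands. Its other probes carry no name and may read other transcripts. The 7 probes of the locus above background on both arrays of a group lay in chr19:5771425-5848475 (19qA). None of the 7 had a difference below 0 (median 1.12). The NEAT1 probe A_30_P01029720, reverse on chr19:5842306-5845476, stood at 6.08 and 5.33 in the controls and at 7.35 and 6.57 with PGE2. The groups were separated, with a difference of 1.26 ± 0.40 that did not pass (adjusted p = 0.248). Further along on the same strand, A_30_P01019037 on chr19:5834117-5835940 stood at 0.62 and 1.44 in the controls and 3.07 and 3.20 with PGE2, a difference of 2.11 ± 0.32 (adjusted p = 0.0953).

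On the forward strand, A_30_P01020677 had a difference of 1.47 ± 0.41 and A_30_P01030929 one of 1.12 ± 0.39. The other 3 probes differed little: A_30_P01020769, named for the same interval as A_30_P01020677, by 0.19 ± 0.16, A_30_P01033068 by 0.01 ± 0.23, and the bright reverse probe A_30_P01020935 on chr19:5798135-5800557 by 0.20 ± 0.25. The larger differences thus lay at the far end of the locus, apart from A_30_P01020677, whose interval spans all of it. Whether the probes of the locus read the same transcript was not tested. The array's gene probes for Neat1, A_55_P2740113 and A_65_P09473, differed by 1.71 and 1.74 (adjusted p = 0.272 and 0.265), each with both PGE2 arrays above both controls.

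In 18qE1, which by the files' cytobands also holds Carmn, a non-coding RNA of smooth muscle that hosts miR-143 and miR-145, the large differences were downward. A_30_P01018499, reverse on chr18:61809278-61825191, stood at 2.22 and 1.56 in the controls and at 0.06 and 0.36 with PGE2, a difference of -1.68 ± 0.29 (adjusted p = 0.113). A_30_P01032470, reverse on chr18:61781410-61788685, stood at -2.29 and -1.87 in the controls and -3.87 and -3.98 with PGE2, a difference of -1.84 ± 0.21 (adjusted p = 0.0664). Neither passed, though their groups were well separated. A second reverse probe of the latter interval, A_30_P01017774, differed by -0.40 ± 0.58, and the forward probe A_30_P01023307 between them by -0.07 ± 0.39. The Carmn gene probe, A_55_P2508153, stood at 3.08 and 2.34 in the controls and 0.85 and 1.00 with PGE2, a difference of -1.78 ± 0.30 (adjusted p = 0.109). Bvht, a heart-associated lncRNA in the same cytoband, was read by A_66_P133677 and differed by 0.14 ± 0.27.

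Of the other lincRNA probes with names, TUG1 and KCNQ1ot1 were lower and XIST was not separated. TUG1, a nuclear RNA found in many tissues (A_30_P01033104, reverse on chr11:3539796-3547536, 11qA1), stood at 0.63 and 0.68 in the controls and -0.11 and 0.36 with PGE2, a difference of -0.53 ± 0.22 (adjusted p = 0.332). KCNQ1ot1, an imprinted antisense RNA of the Kcnq1 domain (A_30_P01026203, chr7:150399015-150482452, 7qF5), stood at 0.88 and 0.49 in the controls and -0.07 and 0.09 with PGE2, a difference of -0.68 ± 0.21 (adjusted p = 0.242). The files put this probe on the forward strand, while RefSeq places Kcnq1ot1 on the minus strand, so the transcript it reads is uncertain. The array's gene probes for Kcnq1ot1 above background differed by -0.14, -0.38, -0.63 and -0.51, each with overlapping groups (adjusted p from 0.574 to 0.917). The gene probe for Tug1, A_52_P62428, differed by -0.35 ± 0.19 (adjusted p = 0.433). XIST, which silences an X chromosome (A_30_P01023652, reverse on chrX:100655711-100678572, XqD), stood at 2.77 and 3.64 in the controls and 2.80 and 3.16 with PGE2, and the groups overlapped. TSIX, PINC, lincP21, H19, HOTAIR and NRON did not meet the criterion.

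Beyond these loci, the largest separated differences above background on all 4 arrays did not pass. A_30_P01032525, reverse on chr8:94841965-94881130 (8qC5), stood at -2.05 and -2.19 in the controls and -0.68 and -0.66 with PGE2, a difference of 1.45 ± 0.16 (adjusted p = 0.064). A_30_P01025044, reverse on chr19:19005109-19008657 (19qB), stood at 1.54 and 1.74 in the controls and 3.65 and 2.57 with PGE2, a difference of 1.47 ± 0.41 (adjusted p = 0.209). The largest downward difference was that of A_30_P01022814, forward on chr8:35650475-35664200 (8qA4), at 3.33 and 1.53 in the controls and 0.34 and 0.22 with PGE2. It amounted to -2.15 ± 0.64 (adjusted p = 0.228), with control arrays further apart than the PGE2 arrays. A_30_P01020315, forward on chr9:13349094-13352732 (9qA1), had a like gap between its controls, -0.73 and 1.39, and stood at -2.18 and -1.09 with PGE2 (difference -1.97 ± 0.83, adjusted p = 0.337). A_30_P01027726 on 8qA2 differed by -1.90 ± 0.56 and A_30_P01022631 on 15qF3 by -1.89 ± 0.43. Both further probes of the latter's place, A_30_P01030520 and A_30_P01031677, were lower too, by -0.41 and -0.55.

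By cytoband, the lincRNA medians were mostly below those of the other probes. Of 270 cytobands with a lincRNA probe above background on all 4 arrays, 89 had at least 5, with 731 probes in all. In 75 of the 89 (84.3%) the lincRNA median difference lay below that of the other probes in the cytoband, and in 77 it lay below 0, against 47 for the other probes. Across the 89, lincRNA and other medians correlated at r = -0.10 (Spearman's rho -0.05), a description over cytobands that share the 4 arrays. The lincRNA medians ran from -0.73 to 0.33 and those of the other probes, which rest on more probes, from -0.20 to 0.20. In level, the lincRNA median was above that of the other probes in 9 of the 89. The comparison by cytoband was not matched on signal, and other probes of the dimmest signal bin had a median difference of -0.09. All chromosome medians of lincRNA probes were below 0 on this scale, from -0.29 on chromosome 16 to -0.12 on chromosome 17. Those of the other probes were not computed. Counts and medians below 0 depend on the scaling. Under the authors' scaling 40.3% of the lincRNA probes above background on all 4 arrays were below 0, against 72.8% here.

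The lowest median belonged to 1qH2.1 (-0.73), where 7 of 7 lincRNA probes above background on all 4 arrays were below 0 and the 40 other probes had a median of 0.12. Of those 7, 4 lay on the forward strand of 1 locus, chr1:163508244-163586072, with differences from -0.87 to -0.68 (median -0.83) at levels from -2.12 to 1.47. None of the 4 passed. They share a locus and do not count as separate evidence. The cytoband also holds 2 well known non-coding genes on other probes. Gas5, a host of small nucleolar RNAs (A_55_P2740898), stood at 6.13 and 5.98 in the controls and 5.34 and 5.40 with PGE2, a difference of -0.69 ± 0.16 (adjusted p = 0.169). Dnm3os, the host of miR-199a and miR-214 (A_52_P590898), differed by -0.11 ± 0.36.

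Next were 18qE1 (-0.49, 6 of 8 below 0, other probes 0.06) and 6qF3 (-0.49, 11 of 12 below 0, other probes 0.14). The highest medians were those of 13qA3.1 (0.33, from 5 probes), XqF3 (0.29, from 5) and 6qE3 (0.15, from 6). In 6qE3 the lincRNA probes were also brighter than elsewhere, with a median level of 3.62 against 0.11 for the other probes there. The locus chr6:116092274-116144199 in this cytoband held 5 lincRNA probes above background on all 4 arrays, so both medians rest largely on 1 locus. The best filled cytobands were 17qA3.3 (19 probes, median -0.16), 5qF (17, -0.32), 14qD3 (16, -0.26), 17qA1 (16, -0.11) and 4qD2.2 (16, -0.14). In 14qD3, 14 of 16 were below 0 although it holds the probe with a difference of 2.34.

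Probes of the same place did not always move alike. The 1408 probes fell into 959 loci of overlapping intervals, of which 648 held 1 probe and 29 held at least 4. Among 80 pairs of probes for the same strand of the same interval, the differences had the same sign in 68.8% and correlated at r = 0.36. Across strands of an interval the signs agreed in 76.2% of 105 intervals (r = 0.21). For nearest neighbours with another interval within 50 kb they agreed in 66.4% of 321 pairs (r = 0.19), of which 218 had overlapping intervals. Since 72.8% of the lincRNA probes above background on all 4 arrays were below 0, unrelated pairs would also mostly share a sign. These shares alone are therefore no measure of joint movement.

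The loci with the most probes show how different this was from place to place. At chr14:77006215-77063293 (14qD3) all 5 were below 0, from -0.66 to -0.17. Of the 5 at chr14:62254361-62308286 (14qD1), a cytoband that by the files also holds Dleu2, 4 were below 0, from -1.37 to 0.23 with a median of -0.95. The brightest Dleu2 gene probe, A_51_P216015, differed by -1.07 ± 0.20 (adjusted p = 0.119). The 6 probes at chr7:134369091-134376468 (7qF3) were split, 3 below 0 and 3 above, from -0.32 to 0.63, and there 3 of the 4 reverse-strand probes were the ones above 0. At chr13:28477490-28985604 (13qA3.1) 2 of 5 were below 0, and the 3 others were not above background on all 4 arrays.

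Named long non-coding RNAs were also read by probes outside the lincRNA probe set. Neat1, Xist, Tug1 and Kcnq1ot1 are among them and have lincRNA probes in their names too, so these RNAs are not a separate set. Of a list of 60 such genes, 49 were on the array and 39 were above background, each read by its brightest probe. Their median difference was -0.11, with 26 below 0 and 13 above. In the limma fit 0 of 39 were called (over all probes, 0.349% were called higher and 0.238% lower), and 3 were higher and 6 lower at an unadjusted p under 0.05 (over all probes, 7.73% and 9.43%). Besides those described above, Snhg6, a snoRNA host (A_66_P122415), stood at 2.28 and 2.38 in the controls and 2.92 and 2.88 with PGE2, a difference of 0.57 ± 0.16 (adjusted p = 0.209). Pvt1, a neighbour of Myc (A_55_P2051254), stood at 0.33 and 0.30 in the controls and -0.59 and -0.35 with PGE2, a difference of -0.78 ± 0.17 (adjusted p = 0.157).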

How the data were processed

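Total RNA of 4 samples (2 control, 2 PGE2) was labelled with Cy3 and hybridised to 1-colour Agilent arrays. Per the file headers, the authors deposited scanner intensity values of Feature Extraction 11.5.1.1 with positions on mm9; the submitters' processing notes name Agilent Feature Extraction 12.0.3.1. The deposited series table of signal values is the processed intensity multiplied by an array-wide constant (0.945 to 1.07). It has 4 further columns of per-sample values that were not used. Flagged outlier spots were left out and spots of a probe averaged. Levels are log2(processed intensity) minus the 75th percentile of the array, computed here from the deposited intensity. Of 56605 probes, 26100 were well above background on both arrays of a group. They were fitted with limma 3.58.1 (R 4.3.3), PGE2 against control, with Benjamini-Hochberg adjustment over all 26100. Each p-value sets a difference against an estimate of the spread between these samples. That estimate has 2 residual degrees of freedom, and 2.22 more come from a prior shared by all fitted probes. The number of arrays limits the precision. The script was tested on simulated data.

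Probes named in the text were the 10 brightest, all called ones, the 10 largest separated differences each way, the 5 largest bounds each way, those at the edge of the criterion, the 5 loci with the most probes, the cytobands with the most probes or extreme medians, those with names, neighbours, and 60 known genes. Probes of 1qH2.1 and 16qC3.3 outside this rule were chosen after their values were seen. The probes and lists were chosen with earlier results of these data known. Alternatives were quantile normalization, median centring, the authors' scaling, normexp (offset 50) with quantile normalization, other filters, 1 probe per gene, each array left out and a replicate block. Normexp used the spot median. Named genes carry no positions in the files, so nearby probes are lincRNA probes only. Probe sequences were not used here. The result of 1 further marker list is not reported here.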

Additional observations from a re-analysis of the deposited data

How the results depend on the processing

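The gap between the median differences of lincRNA and other probes stayed below 0 under every alternative run, from -0.20 to -0.10. Under median centring, the authors' scaling, the other filters and the replicate block it was -0.19 by construction. These settings shift both sets alike or leave the differences as they were, so they could not change it. The lincRNA median itself turned to 0.060 under the authors' scaling, where the other probes stood at 0.25, since that scaling moves all probes upward. It was -0.089 with normexp and quantile normalization (other probes 0.010). The other probes' median was 0.018 with quantile normalization and ran from -0.026 to 0.024 with an array left out, when the lincRNA median ran from -0.21 to -0.12 and the gap from -0.18 to -0.14. The gap matched on signal ran from -0.20 to -0.10 with an array left out.

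The calls were fragile. Probes called higher and lower numbered 0 and 0 under the authors' scaling, where 119 and 64 had an unadjusted p under 0.05 in limma. They numbered 0 and 0 with no filter (62 and 166 unadjusted), and 2 and 0 with the filter on all 4 arrays (31 and 130 unadjusted), which removes 6 of the 8. With normexp and quantile normalization 5 were called higher and 0 lower (56 and 122 unadjusted). Over all probes limma called 0 and 0 under the authors' scaling and with no filter, so that loss was not particular to lincRNA probes. It called 45 and 19 over all probes with the filter on all 4 arrays, and 134 and 99 with normexp and quantile normalization. With each array left out, 0 to 1 were called higher and 0 lower, with 44 to 68 and 75 to 172 unadjusted. Where not stated, the cause was not tested. With a single array in a group, that array is assumed to vary like the others. The counts with an array left out therefore cannot test a call, and their fall is not read as particular to lincRNA probes. For the unadjusted counts of the alternatives no share over all probes is given here, so they lack a background. All 8 kept their direction wherever they were fitted. Same-numbered samples deviated together (r = 0.41), but with 2 pairs the numbers are not taken as pairing. With the replicate block, 6 were called higher and 8 lower (83 and 248 unadjusted), and over all probes 189 and 194 instead of 91 and 62. Of the 8 calls 7 were kept, and A_30_P01032196 no longer passed (adjusted p = 0.0508). The rest of the calls with the block were new, among them A_30_P01024637 (0.0486).

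With at least 8 probes per cytoband, 91.7% of cytobands had the lincRNA median below the other probes, again without matching on signal. The alternatives of neighbours as lincRNA probes, normexp on the spot median, 1 probe per locus and the gap were chosen after seeing the data. The planned comparison with probes of named genes nearby was not run, since these carry no position. With 2 arrays per group, signals near background limit the dimmest probes to bounds.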
